A study of Mus musculus with 2 samples.

Results

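Natural killer (NK) cells of the spleen were compared between fasted and ad libitum fed mice in droplet-based single-cell RNA sequencing, where each unique molecular identifier (UMI) counts 1 captured transcript. The members were the cells that the authors' hashtag classification gave to the fasted spleen population (1391 cells) or to the ad libitum spleen population (1804 cells). These 3195 cells were part of 7479 cells given to a single population, and of 13118 cells in the matrix. Per the labels, C57BL/6 mice of 12 weeks carried subcutaneous tumours of the colon carcinoma line MC38 and were kept on a diet of fasting cycles or were fed ad libitum. NK cells were sorted as lineage-negative cells with NK1.1 and CD49b, stained with hashtag antibodies and pooled in 1 droplet lane. The tag list of the deposit names the populations compared here as fasted and ad libitum, and it also names refed and naive spleen populations, which are set beside them. The labels used here do not state the length of the fast, the meaning of naive or the number of mice behind a population. With 1 hashtag each, the populations are 1 sample each, and differences are therefore given without a test.

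The 15-base hashtag sequences assigned every cell to its population, and they differ as follows.
Fasted spleen, hashtag B0307: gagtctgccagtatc
Ad libitum spleen, hashtag B0309: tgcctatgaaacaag

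NK cells are innate lymphocytes that kill stressed, infected or transformed cells with perforin and granzymes, and that secrete interferon gamma and chemokines. In the spleen they mature from CD27-bearing cells to cells with CD11b, KLRG1 and CX3CR1. Fasting lowers insulin and glucose and raises fatty acids and glucocorticoids in blood. Glucocorticoids act through the glucocorticoid receptor, fatty acids through PPAR receptors, and low insulin frees FOXO transcription factors that insulin signalling through PI3K and AKT otherwise keeps out of the nucleus.

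Cells with markers of other types were left out, 26 from the fasted and 46 from the ad libitum population. Of these, 11 fasted and 26 ad libitum cells carried T cell markers, 13 and 12 carried macrophage or monocyte markers, and 2 and 8 carried dendritic cell markers. The remaining 1365 fasted cells held 5202749 UMIs and the remaining 1758 ad libitum cells held 8497323. All 10 NK markers were detected in both, although 1 UMI suffices for detection in sums of this size. Their summed level was 28380 counts scaled to a total of 1000000 UMIs per population (CPM) in fasted and 31030 CPM in ad libitum cells. Gzma made up the largest part of this sum in both populations. The markers of the sort were near equal, with 750.2 CPM in fasted and 724.7 CPM in ad libitum cells for Klrb1c (NK1.1), and 59.8 against 58.2 CPM for Itga2 (CD49b). Summed T cell markers stood at 64.2 CPM in fasted and 65.1 CPM in ad libitum cells. B cell markers stood at 99.2 against 96.5 CPM, and dendritic cell markers at 185.1 against 184.4 CPM. Macrophage or monocyte markers were higher in fasted cells, at 27.5 against 18.8 CPM, as were neutrophil markers, at 45.4 against 34.5 CPM. Basophil or mast cell markers stood at 0.961 against 1.53 CPM, and erythroid markers at 219.5 against 213.8 CPM.

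Fasted cells held less RNA in the libraries than ad libitum cells. The median was 3448 UMIs per fasted cell and 4184 per ad libitum cell, with 1410 against 1606 genes detected. The median was lower in fasted cells within each of the 8 clusters of the authors that had at least 20 cells a side. In cluster 1 it was 3449 UMIs in fasted and 4932 in ad libitum cells, and in cluster 9, the shallowest, 1233 against 1284. After cells were thinned to 1500 UMIs, which kept the 1266 fasted and 1647 ad libitum cells that reached that depth, the median gene number was 775 in fasted and 779 in ad libitum cells. The share of mitochondrial UMIs was 2.87% in fasted and 2.57% in ad libitum cells. Less RNA per cell and a lower capture of RNA cannot be told apart here. Levels below are therefore CPM over summed counts, and shares of cells were counted after thinning.

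**Figure D1:**
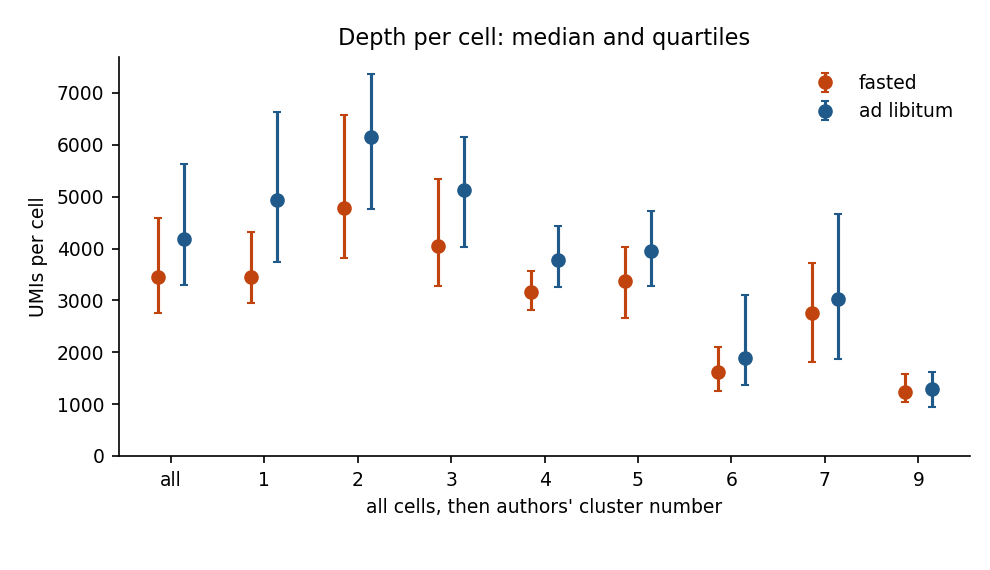
UMIs per cell (vertical axis) in fasted (left point of each pair) and ad libitum (right point) spleen NK cells, for all cells and for the 8 compared clusters. Points are medians and bars run between the quartiles. The fasted median lies below the ad libitum median in every pair, 3448 against 4184 over all cells.

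Most genes had near equal levels. The median log2 ratio of CPM + 5, fasted over ad libitum, was 0.0016 over the 5426 genes that reached 20 CPM in fasted or ad libitum cells, and 95% of them lay between -0.42 and 0.42. At 1.5-fold or more, 50 genes (0.921%) were higher and 61 genes (1.12%) were lower in fasted cells. Of the 50 higher genes, 27 were higher in all 8 clusters and 48 in at least 6. Of the 61 lower genes, 17 were lower in all 8 clusters and 49 in at least 6. Among all 5426 genes, 3.17% were higher and 2.97% lower in all 8 clusters. The 50 and 61 genes were picked from sums over these same cells. Their agreement within clusters is therefore partly set by that choice and is no independent support. The balance of calls changed with the weight of the cells. With the same weight per cell, 54 genes were higher and 32 lower, and in thinned cells 86 and 70. When the fasted clusters were given the ad libitum cluster shares, the counts were 52 and 39. This setting, like the equal cluster weights below, uses only the 8 compared clusters. Those 8 clusters without new shares gave 48 higher and 41 lower genes. For scale, naive cells had 0 genes higher (0.0%) and 10 genes lower (0.186%) than ad libitum cells by the same rule, over 5367 genes.

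**Figure D2:**
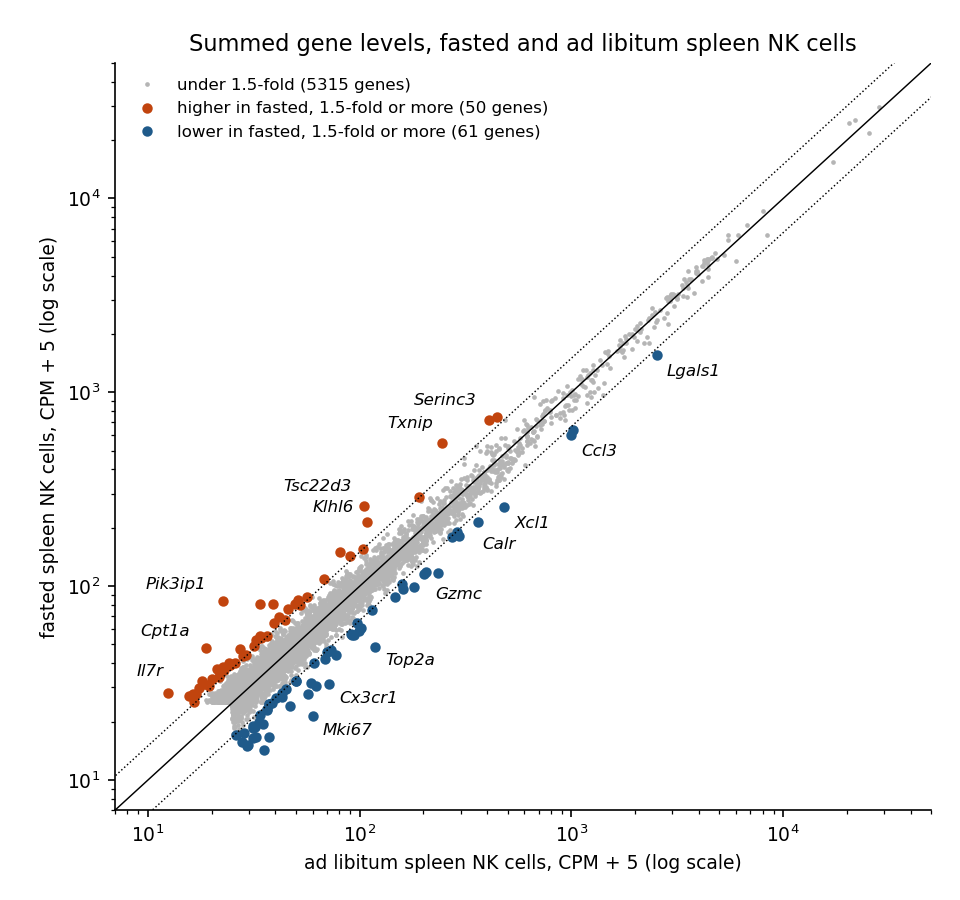
Summed level of each gene in fasted (vertical axis) and ad libitum (horizontal axis) spleen NK cells, as CPM + 5 on log scales. The solid line marks equal levels and the dotted lines 1.5-fold. The 50 genes above the upper line include Pik3ip1, Tsc22d3 and Txnip, and the 61 below the lower line include Mki67, Cx3cr1 and Xcl1.

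The gene with the highest ratio was Pik3ip1 (chr11:3330401-3342971, plus strand, mm10), which encodes a membrane protein that restrains PI3K. It had 78.8 CPM in fasted cells (95% counting interval 71.4 to 86.8), against 18.9 CPM in refed, 20.5 CPM in naive and 17.6 CPM in ad libitum cells (14.9 to 20.7). The log2 ratio was 1.89 over all cells and lay between 1.36 and 3.76 across the 8 clusters. The fasted population stood alone, and the refed, naive and ad libitum levels lay within each other's counting intervals. In cells thinned to 1500 UMIs, 11.8% of fasted cells (10.1% to 13.8%) and 2.61% of ad libitum cells (1.90% to 3.501%) had a Pik3ip1 UMI, and before thinning 24.1% and 7.45% had one. The share of cells that would carry a UMI from free RNA was not measured for any gene here.

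Ddit4, which encodes an inhibitor of mTORC1, had 75.7 CPM in fasted cells, against 32.2 CPM in refed, 34.3 CPM in naive and 44.2 CPM in ad libitum cells, and was higher in all 8 clusters. Pik3r1, the p85 alpha regulatory subunit of PI3K, had 272.2 CPM in fasted and 211.2 CPM in ad libitum cells (log2 ratio 0.36, higher in all 8 clusters). Pik3r5, a regulatory subunit of PI3K gamma, had 73.2 against 53.5 CPM (0.42, higher in all 8). Of the 16 measured genes of the PI3K, mTOR and insulin signalling list, 10 were higher and 6 lower, and 2 passed 1.5-fold, both upward. The list median was 0.14, and it was above 0 in each of the 8 clusters (0.04 to 0.36) but -0.05 when the clusters were weighted equally. Pik3ip1 reached the 20 CPM minimum in fasted but not in ad libitum cells, and with no minimum level the list median was 0.07.

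Several genes known to be induced by glucocorticoids were higher in fasted cells. Of 13 measured members 10 were higher and 3 lower in fasted cells, 7 passed 1.5-fold upward and 0 downward, and the median log2 ratio was 0.71. The median is the ratio of Ddit4, the mTORC1 inhibitor given above, so the lists share genes. Il7r, another member, is also in the lists of FOXO targets and of less mature NK cells below. Il7r and Klf9 reached the 20 CPM minimum in fasted but not in ad libitum cells. With no minimum level the median was 0.22, below that of the immature NK list at 0.33. Within the 8 clusters the median was above 0 in 7 and ran from -0.07 in cluster 6 to 0.97 in cluster 2, with 0.06 in cluster 1 and 0.29 in cluster 4. Tsc22d3 (chrX:140539528-140600659, minus strand), which encodes GILZ, the glucocorticoid-induced leucine zipper, had 255.6 CPM in fasted cells (242.1 to 269.8), against 78.8 CPM in refed, 82.6 CPM in naive and 99.6 CPM in ad libitum cells (92.96 to 106.5). Its log2 ratio was 1.32 over all cells and stood between 1.26 and 1.49 in clusters 1 to 5. It was smaller, at 0.43, 0.40 and 0.90, in clusters 6, 7 and 9, where the sums rest on 11 to 67 UMIs in fasted cells. After thinning, 32.9% of fasted and 12.4% of ad libitum cells had a Tsc22d3 UMI, and before thinning 56.4% and 32.1%.

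Fkbp5, which encodes a co-chaperone of the glucocorticoid receptor, had 75.5 CPM in fasted and 33.8 CPM in ad libitum cells (log2 ratio 1.05, higher in 7 of 8 clusters). Zfp36l2, an RNA-binding protein that promotes mRNA decay, had 744.0 against 440.7 CPM and the narrowest spread across clusters among these genes, with log2 ratios of 0.68 to 0.94. Klf9, a transcription factor, had 24.8 against 12.4 CPM (0.78, higher in all 8 clusters). Cxcr4, the receptor for CXCL12, had 70.9 CPM in fasted and 40.9 CPM in ad libitum cells (0.72), and its cluster values ran from -0.25 to 2.16. The receptor gene itself, Nr3c1, had 76.3 CPM in fasted and 76.7 CPM in ad libitum cells, with overlapping counting intervals. Per1, a clock gene that glucocorticoids also induce, was under the 20 CPM minimum with 16.7 against 12.8 CPM. In thinned cells, 42.3% of fasted cells (39.5% to 45.0%) and 26.5% of ad libitum cells (24.4% to 28.7%) carried UMIs of at least 3 genes of the list, and before thinning 83.8% and 73.9% did.

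Txnip (chr3:96557957-96561883, plus strand), which encodes a thioredoxin-binding protein that limits glucose uptake, had 545.9 CPM in fasted cells, against 255.2 CPM in refed, 257.1 CPM in naive and 239.4 CPM in ad libitum cells. Its log2 ratio was 1.17 and ran from 0.79 to 1.54 across clusters. A Txnip UMI was found in 55.7% of thinned fasted cells (52.9% to 58.5%) and in 31.7% of thinned ad libitum cells (29.4% to 34.0%), and before thinning in 78.5% and 60.6%. The promoter window of Txnip in RefSeq (GRCm38.p6, 250 bases before to 50 after the start) is shown because it holds the FOXO core GTAAACA, which is in capitals.
Txnip, chr3:96557707-96558006, plus strand: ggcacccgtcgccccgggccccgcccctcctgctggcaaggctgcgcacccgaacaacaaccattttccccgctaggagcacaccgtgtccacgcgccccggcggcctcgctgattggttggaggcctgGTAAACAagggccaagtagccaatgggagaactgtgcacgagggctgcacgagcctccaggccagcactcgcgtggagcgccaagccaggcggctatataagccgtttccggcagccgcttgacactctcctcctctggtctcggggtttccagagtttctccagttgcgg
A window was found for 41 of the 50 higher and 48 of the 61 lower genes. On either strand, GTAAACA was in the windows of 3 of the 41 higher genes (7.32%) and 0 of the 48 lower genes. The 3 genes were Dhrs3, Klf9 and Txnip. GTAAACA was in 3.21% of the measured genes with a window and 4.05% of all genes with a window. AGAACA, an arm of the glucocorticoid receptor's binding motif, was in 22% of the higher genes, among them Tsc22d3 and Cxcr4, and 8.33% of the lower genes. It was in 13.5% of the measured genes and 21.3% of all genes with a window. The motif with both arms, AGAACA and TGTTCT 3 bases apart, was in 0 of the 41 higher and 0 of the 48 lower genes. Among the measured genes with a window only Sgk1, of the glucocorticoid list, held it. Sgk1 had 33.4 CPM in fasted and 37.7 CPM in ad libitum cells (-0.15). A match describes letters in the window and is no evidence of binding.

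The wider list of FOXO targets and quiescence genes moved little beyond Pik3ip1 and Il7r. Of 16 measured members 11 were higher and 5 lower, 2 passed 1.5-fold upward, and the median log2 ratio was 0.14. Pik3ip1 and Il7r, the genes past the fold, reached the 20 CPM minimum in fasted but not in ad libitum cells. Pik3ip1 is also in the PI3K list and Il7r in the glucocorticoid list, so these lists are not separate results. With no minimum level the median was 0.16. Klf2, which encodes a transcription factor that keeps lymphocytes quiescent and recirculating, had 1162 CPM in fasted and 1121 CPM in ad libitum cells, and 78.7% of fasted and 78.5% of ad libitum thinned cells had its UMI (92.4% and 93.9% before thinning). S1pr1, the receptor that guides exit from lymphoid organs, had 50.5 against 34.7 CPM (0.48), below the fold. Ccng2, an atypical cyclin, had 37.3 against 23.3 CPM (0.58), also just below it.

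Among genes of fatty acid oxidation, Cpt1a and Slc25a20 passed the fold. Cpt1a (chr19:3322334-3385733, plus strand), which loads long-chain fatty acids onto carnitine at the outer mitochondrial membrane, had 42.9 CPM in fasted cells (37.4 to 48.9), against 20.7 CPM in refed, 15.1 CPM in naive and 13.9 CPM in ad libitum cells (11.5 to 16.6). Its log2 ratio was 1.34 and ran from 0.70 to 2.27 across the 8 clusters. The refed level also lay above the ad libitum level, and their counting intervals did not overlap. Slc25a20, the carnitine carrier of the inner membrane, had 32.3 CPM in fasted and 16.1 CPM in ad libitum cells (0.82). Its ratio was above 0 in all 8 clusters but uneven, from 0.06 in cluster 6 to 1.72 in cluster 2. It was 0.24 in cluster 1 and 0.09 in cluster 9. Cpt2, the enzyme after the carrier, was under the minimum with 8.84 against 7.53 CPM.

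Of the 15 measured genes of fatty acid oxidation, 10 were higher and 5 lower, and 2 passed 1.5-fold, Cpt1a and Slc25a20. The median was 0.03, with Acadl at 94.95 CPM in fasted and 103.8 CPM in ad libitum cells and Acadvl at 38.1 against 40.1 CPM, both dehydrogenases of the pathway. Acaa2, the thiolase of the last step, had 54.4 CPM in fasted and 36.8 CPM in ad libitum cells (0.51, higher in 7 of 8 clusters), and Hadh, a dehydrogenase of the third step, 29.6 against 21.3 CPM (0.40), both under the fold. PPAR targets had 6 measured genes, of which Cpt1a, Slc25a20 and Abca1 passed the fold. These 3 reached the 20 CPM minimum in fasted but not in ad libitum cells, so the list's median of 0.49 is partly set by the minimum. The median was 0.17 with no minimum level, 0.10 at a minimum of 50 CPM, 0.20 with the ad libitum cluster shares and 0.24 with totals that leave out mitochondrial and ribosomal protein genes. Abca1, a cholesterol exporter, had 33.4 CPM in fasted and 17.5 CPM in ad libitum cells (0.77). The PPAR targets Pdk4 and Angptl4 were close to undetected, with 0.0 and 3.27 CPM in fasted cells against 0.235 and 4.12 CPM in ad libitum cells.

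Other genes high in fasted cells came from several lists or from none. Rab27a (chr9:73044854-73097629, plus strand), a small GTPase that docks lytic granules at the membrane, had 76.1 CPM in fasted cells, against 31.4 CPM in refed, 33.5 CPM in naive and 28.8 CPM in ad libitum cells. The log2 ratio of Rab27a was 1.26 over all cells and 0.94 to 1.89 across the clusters. Klhl6, an adaptor of a ubiquitin ligase, had 208.0 against 103.1 CPM (0.98). Acp5, a lysosomal acid phosphatase, had 145.5 against 75.9 CPM (0.90), and Serinc3, a multi-pass membrane protein, 715.0 against 403.8 CPM (0.82). Arhgap26, a GTPase-activating protein, had 64.0 against 36.7 CPM (0.73), Qrfp 79.6 against 46.4 CPM (0.72), and Tcp11l2 50.2 against 28.7 CPM (0.71). All of these except Tcp11l2, at 6 of 8, were higher in all 8 clusters. A Serinc3 UMI was found in 68.1% of thinned fasted cells and 47.0% of thinned ad libitum cells (88.9% and 77.4% before thinning).

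**Figure D3:**
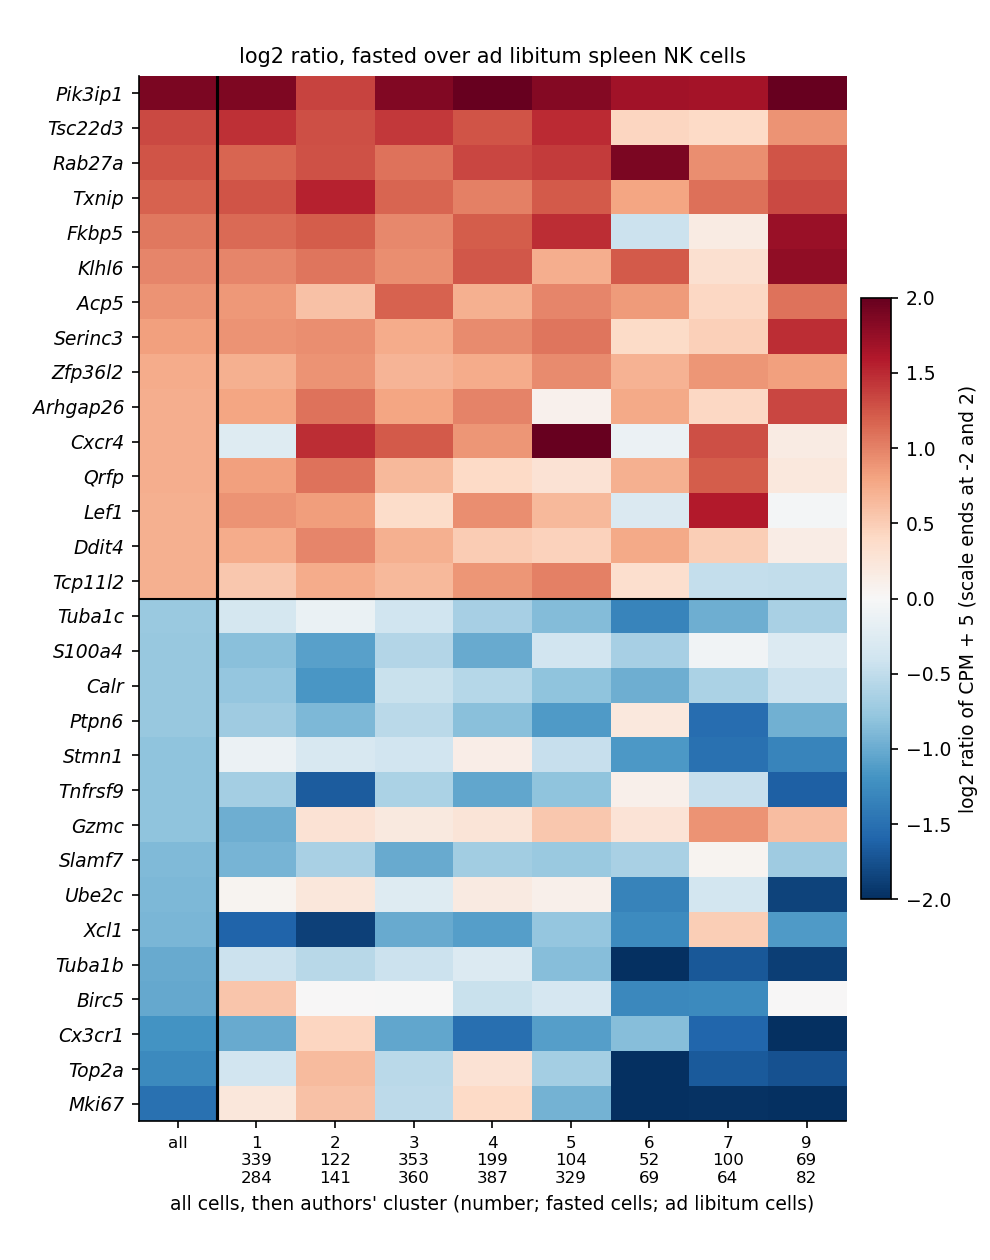
Log2 ratio of CPM + 5, fasted over ad libitum, for the 15 highest and 15 lowest genes of the rule (rows) over all cells (first column) and in the 8 compared clusters (other columns, with the number of fasted and then ad libitum cells). Pik3ip1, Rab27a and Zfp36l2 are above 0 in every cluster, whereas the division genes Mki67 and Top2a are at -1.49 and -1.28 over all cells with cluster values of both signs.

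Of 15 measured genes of the list of less mature NK cells 13 were higher and 2 lower in fasted cells, 3 passed the fold upward and 0 downward, and the median log2 ratio was 0.33. This median was 0.17 in thinned cells and 0.19 with equal cluster weights. Il7r reached the 20 CPM minimum in fasted but not in ad libitum cells, and with no minimum level the median was also 0.33. Il7r, the receptor chain for interleukin 7, had 23.1 CPM in fasted cells (19.1 to 27.6), against 10.0 CPM in refed, 9.18 CPM in naive and 7.41 CPM in ad libitum cells (5.70 to 9.49). Its UMI was in 2.53% of fasted and 0.911% of ad libitum thinned cells, and before thinning in 3.96% and 1.76%. Its log2 ratio was 1.18, with 6 of 8 clusters higher. Il7r also marks group 1 innate lymphoid cells (ILC1) and is itself among the 8 ILC1 markers used here. The summed level of the 8, Il7r included, was 52.7 CPM in fasted and 32.6 CPM in ad libitum cells. Most of this difference came from Il7r, at 23.1 against 7.41 CPM. Only Il7r among them reached the 20 CPM minimum, and 0 of the 8 were undetected in either population. The part of ILC1 in the Il7r value was not tested.

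Lef1, a transcription factor of early lymphocytes, had 59.4 CPM in fasted and 34.2 CPM in ad libitum cells (0.71), and Emb, a membrane glycoprotein, 104.4 against 62.8 CPM (0.69). Ly6e, a membrane protein anchored by a lipid, had 714.2 against 482.2 CPM (0.56) and was higher in all 8 clusters. Cd27 had 110.7 against 84.7 CPM (0.37), also higher in all 8. The medians of the immature list within clusters were of both signs, from -0.01 to 0.64. Kit was under the minimum with 4.997 CPM in fasted and 11.2 CPM in ad libitum cells.

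Of 15 measured genes of mature NK cells, 3 were higher and 12 lower, and 1 passed the fold, Cx3cr1, the receptor for fractalkine. The median was -0.16 over all cells, but 0.07, 0.10 and 0.04 in clusters 1, 2 and 6 and below 0 in the other 5. Cx3cr1 had 26.3 CPM in fasted cells (22.1 to 31.1), against 28.9 CPM in refed, 37.3 CPM in naive and 66.7 CPM in ad libitum cells (61.4 to 72.5). Here the ad libitum population stood apart from the other 3. The log2 ratio was -1.19, and 7 of 8 clusters were lower. After thinning, 3.002% of fasted and 9.35% of ad libitum cells had its UMI, and before thinning 6.15% and 16.8%. Klrg1, an inhibitory receptor of mature cells, had 122.2 CPM in fasted, 112.1 CPM in refed, 129.1 CPM in naive and 170.3 CPM in ad libitum cells (-0.46, lower in all 8 clusters), again with ad libitum cells highest. Zeb2, a transcription factor of terminal maturation, had 378.8 against 464.9 CPM (-0.29). Itgam, which encodes CD11b, had 159.0 against 164.6 CPM, and S1pr5, which guides mature NK cells out of tissue, 134.9 against 152.9 CPM.

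Of 9 measured cytokine and chemokine genes 3 were higher and 6 lower in fasted cells, with 3 past the fold downward, Xcl1, Ccl3 and Ccl4. The most abundant, the chemokine gene Ccl5, ran the other way, with 25470 CPM in fasted and 21750 CPM in ad libitum cells (0.23, higher in all 8 clusters). The sum over the list was therefore higher in fasted cells, at 27520 against 24840 CPM. The other higher members were Ltb, lymphotoxin beta, with 121.1 against 95.4 CPM (0.33), and Il16, with 82.5 against 72.7 CPM (0.17). Xcl1 (chr1:164931644-164935527, minus strand), which attracts cross-presenting dendritic cells, had 250.1 CPM in fasted cells (236.7 to 264.0), against 552.0 CPM in refed, 454.5 CPM in naive and 477.6 CPM in ad libitum cells (463.0 to 492.5). Its log2 ratio was -0.92 over all cells, -1.60 in cluster 1 and -1.87 in cluster 2, and 0.49 in cluster 7. An Xcl1 UMI was found in 18.5% of fasted and 28.8% of ad libitum thinned cells, and before thinning in 33.9% and 47.5%. For Xcl1 the fasted population stood below the other 3.

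The chemokine genes Ccl3 and Ccl4 followed another order. Ccl3 had 596.2 CPM in fasted, 676.8 CPM in refed, 660.3 CPM in naive and 989.8 CPM in ad libitum cells (-0.73). Ccl4 had 633.1 CPM in fasted, 921.9 CPM in refed, 851.5 CPM in naive and 1014 CPM in ad libitum cells (-0.68). Both were lower in 7 of 8 clusters. Ifng, interferon gamma, had 206.2 CPM in fasted, 215.7 CPM in refed, 210.1 CPM in naive and 259.0 CPM in ad libitum cells (-0.32). For Ccl3 and Ifng, the ad libitum level was high and the other 3 populations were close together.

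Of 18 measured cytotoxic granule genes 6 were higher and 12 lower, with Rab27a past the fold upward and Gzmc and Gzmm past it downward, and the median was -0.17. Gzmb, granzyme B, had 880.1 CPM in fasted (854.8 to 906.0), 996.3 CPM in refed, 794.5 CPM in naive and 1176 CPM in ad libitum cells (1153 to 1199). The Gzmb log2 ratio was -0.42 with all 8 clusters lower, while the naive level lay below the fasted one. Prf1, perforin, had 315.2 CPM in fasted and 380.0 CPM in ad libitum cells (-0.27), and Gzma, granzyme A and the most abundant of these genes, 15410 against 17190 CPM (-0.16). Gzmm, granzyme M, had 13.8 against 27.1 CPM (-0.77). It reached the 20 CPM minimum in ad libitum but not in fasted cells, and with no minimum level the list median was -0.14. Serpinb6b, a serine protease inhibitor, had 524.3 against 350.3 CPM (0.57), just under the fold.

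Gzmc, granzyme C (chr14:56231441-56234656, minus strand), had 110.9 CPM in fasted and 197.0 CPM in ad libitum cells, a log2 ratio of -0.80. Within clusters it was higher in 7 of 8 and lower in cluster 1 (-0.98). In the ad libitum population 42.05% of its UMIs lay in 2 cells of cluster 11, a cluster with 0 fasted cells. Without clusters 0, 8, 10 and 11, which had fewer than 20 cells a side, its log2 ratio was -0.06. With the same weight per cell it was 0.10.

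Receptors of NK cells showed no common shift. Of 26 measured genes 15 were higher and 11 lower, and the median was 0.04 and -0.02 in thinned cells. Slamf7, an activating receptor, was past the fold with 93.6 CPM in fasted and 175.9 CPM in ad libitum cells (-0.88), and lower in 7 of 8 clusters. Ncr1, the activating receptor NKp46, had 1053 against 1330 CPM (-0.34), and 76.6% of fasted and 85.1% of ad libitum thinned cells had its UMI (92.9% and 97.2% before thinning). Klra1, a receptor for MHC class I, had 170.5 against 243.0 CPM (-0.50). Klrb1f, a C-type lectin-like receptor, had 281.6 against 209.4 CPM (0.42) and was higher in all 8 clusters.

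Genes of cytokine receptors and their signalling were higher by small amounts. Of 21 measured members 15 were higher and 6 lower, 0 passed the fold, and the median log2 ratio was 0.15 and above 0 in each of the 8 clusters (0.05 to 0.53). Bcl2, a survival factor, had 453.6 CPM in fasted, 314.6 CPM in refed, 268.2 CPM in naive and 306.4 CPM in ad libitum cells (0.56). Il18r1, a receptor chain for interleukin 18, had 269.1 CPM in fasted and 190.3 CPM in ad libitum cells (0.49). Il10ra had 74.96 against 53.1 CPM (0.46) and Jak1, a kinase shared by many cytokine receptors, 864.5 against 708.1 CPM (0.29). These genes were higher in all 8 clusters.

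Genes induced by interferon were lower on balance. Of 12 measured members 2 were higher and 10 lower, 2 passed the fold downward, and the median was -0.28. Isg15, a ubiquitin-like protein, had 41.7 CPM in fasted, 69.1 CPM in refed, 41.6 CPM in naive and 68.3 CPM in ad libitum cells (-0.65). Ifi27l2a had 11.5 CPM in fasted, 20.1 CPM in refed, 7.02 CPM in naive and 26.4 CPM in ad libitum cells (-0.92). For both genes the fasted and naive levels were low and the refed and ad libitum levels high. Ifi27l2a reached the 20 CPM minimum in ad libitum but not in fasted cells, and with no minimum level the list median was also -0.28. Outside the list, Irf8, a transcription factor that interferon induces, had 351.4 CPM in fasted and 477.7 CPM in ad libitum cells (-0.44) and was lower in all 8 clusters.

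Over all cells, division genes were lower in the fasted population, much of that difference lay in few cells, and the clusters differed in sign. All 12 measured mitosis genes were lower in fasted cells, 10 of them past the fold, with a median log2 ratio of -0.92. Mki67, Cenpf, Nusap1, Ccnb2, Cdk1 and Cks1b reached the 20 CPM minimum in ad libitum but not in fasted cells, so this count is partly set by the minimum. With no minimum level the median was -0.82. Mki67, the proliferation marker Ki-67, had 16.3 CPM in fasted cells (13.1 to 20.2), against 44.1 CPM in refed, 45.9 CPM in naive and 54.8 CPM in ad libitum cells (49.97 to 60.05), and a log2 ratio of -1.49. Top2a, topoisomerase II alpha, had 43.8 CPM in fasted and 113.3 CPM in ad libitum cells (-1.28), and Birc5, survivin, 25.6 against 57.2 CPM (-1.02). Of the 17 measured DNA replication genes 1 was higher and 16 were lower, with Rrm2, a subunit of ribonucleotide reductase, at 10.8 against 22.7 CPM (-0.81). The median of the replication list was -0.34, and -0.37 with no minimum level. It was -0.06 in thinned cells, -0.06 with the same weight per cell and -0.10 at a minimum of 50 CPM.

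The cells of cluster 10, 5 fasted and 19 ad libitum, held 0.255% of the fasted and 26.9% of the ad libitum UMIs of the mitosis list. Their median was 3119 UMIs per fasted cell and 14520 per ad libitum cell. Cluster 5, with 104 fasted and 329 ad libitum cells, held 15.85% of the fasted and 24.2% of the ad libitum UMIs of the list, at a summed level of 987.5 against 1253 CPM. With the ad libitum cluster shares in both populations, a setting that also leaves out clusters 0, 8, 10 and 11, the list median was -0.40. Birc5 was then at -0.34. With the same weight per cell the median was -0.44. Leaving out clusters 0, 8, 10 and 11 alone put the median of the mitosis list at -0.49, Mki67 at -0.95, and Birc5 at -0.49. The same step left 41 lower genes, of which 36 were among the 61, and 8 of the 25 lost were mitosis or replication genes. It left 48 higher genes, of which 45 were among the 50. Within the 8 clusters, the median of the mitosis list was above 0 in 3 and below 0 in 5. It was 0.27, 0.25 and 0.31 in clusters 1, 2 and 4, and -0.36 and -0.44 in clusters 3 and 5. In clusters 6, 7 and 9 it was -1.84, -1.45 and -2.15. Mki67 was likewise higher in 3 clusters and lower in 5. In thinned cells, 2.21% of fasted cells (1.48% to 3.18%) and 4.74% of ad libitum cells (3.76% to 5.88%) carried UMIs of at least 3 mitosis genes, and before thinning 11.8% and 18.1% did. At 5 genes or more the share of thinned cells was 0.316% of fasted (0.086% to 0.807%) and 2.61% of ad libitum cells (1.90% to 3.501%), and before thinning 1.17% and 4.49%.

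The promoter of Top2a is shown with the letters of the CCAAT box and of the cell cycle homology region TTTGAA, a motif known from genes of G2 and mitosis, in capitals on either strand.
Top2a, chr11:99024140-99024439, minus strand: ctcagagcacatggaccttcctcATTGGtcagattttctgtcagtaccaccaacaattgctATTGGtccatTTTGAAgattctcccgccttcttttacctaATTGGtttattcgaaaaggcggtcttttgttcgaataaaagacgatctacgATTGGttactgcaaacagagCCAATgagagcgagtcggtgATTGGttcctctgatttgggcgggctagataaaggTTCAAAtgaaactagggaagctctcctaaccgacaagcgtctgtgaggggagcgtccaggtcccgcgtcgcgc
The second TTTGAA, read from the other strand as TTCAAA, starts 23 bases before the start of the gene. TTTGAA was in the windows of 8 of the 11 measured mitosis genes with a window (72.7%). It was in 35.4% of the lower genes and 4.88% of the higher genes. Its share was 14% of the measured genes and 20.2% of all genes with a window. CCAAT was in 81.8% of the mitosis genes and 42.2% of the measured genes. The E2F core TTCCCGC, also searched, was in 0 of the 11 mitosis genes. It was in 10.4% of the lower, 2.44% of the higher and 9.93% of the measured genes. The E-box CACGTG was searched as well and was in 0 of the 11 mitosis genes. It was in 14.6% of the lower, 19.5% of the higher and 12.3% of the measured genes.

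Chaperones of the endoplasmic reticulum (ER) were lower in fasted cells. Calr, calreticulin, a lectin that folds glycoproteins, had 208.5 CPM in fasted cells (196.3 to 221.3), against 439.4 CPM in refed, 329.5 CPM in naive and 355.8 CPM in ad libitum cells (343.2 to 368.7). Pdia6, a disulphide isomerase, had 92.1 CPM in fasted, 200.3 CPM in refed, 145.6 CPM in naive and 155.6 CPM in ad libitum cells. Their log2 ratios were -0.76 and -0.73, and both were lower in all 8 clusters. In both genes the fasted level was lowest and the refed level highest. Hspa5, known as BiP, had 309.8 CPM in fasted and 395.8 CPM in ad libitum cells (-0.35), Hsp90b1 333.7 against 437.2 CPM (-0.38), and Canx, calnexin, 81.1 against 106.3 CPM (-0.37), each lower in all 8 clusters. These chaperones were no list of their own and were gathered after their values were seen.

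The promoter of Pdia6 is shown because it holds the ER stress element, CCAAT and CCACG separated by 9 bases, which is in capitals.
Pdia6, chr12:17266339-17266638, plus strand: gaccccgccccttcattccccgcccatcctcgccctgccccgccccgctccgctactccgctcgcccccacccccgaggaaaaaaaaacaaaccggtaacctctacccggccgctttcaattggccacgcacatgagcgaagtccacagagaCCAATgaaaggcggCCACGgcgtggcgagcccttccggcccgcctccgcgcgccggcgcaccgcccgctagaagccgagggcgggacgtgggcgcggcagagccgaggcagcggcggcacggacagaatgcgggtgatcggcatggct
Of the measured genes with a window, 8 (0.187%) hold this element on either strand, against 0.137% of all genes with a window. These 8 genes, Calr, Canx, Creld2, Dnajc3, Hnrnpa3, Hsp90b1, Hspa5 and Pdia6, were all lower in fasted cells, 3 of them past the fold, with a median log2 ratio of -0.38. Creld2, also an ER protein, had 19.99 against 33.4 CPM (-0.62), and the smallest difference was that of Dnajc3, with 141.8 against 153.8 CPM (-0.11). This group too was formed after the values were seen.

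Of 23 measured genes of actin and motility 1 was higher and 22 lower, with log2 ratios from -0.76 to 0.0016. The list median was -0.27, and it was below 0 in each cluster (-0.36 to -0.19). Actb, beta actin, had 6466 CPM in fasted and 8371 CPM in ad libitum cells (-0.37), Pfn1, profilin, 2252 against 2843 CPM (-0.34), and Cfl1, cofilin, 827.1 against 1033 CPM (-0.32). Lgals1, galectin 1, passed the fold with 1550 against 2518 CPM (-0.70), and so did S100a4, a calcium-binding protein, with 50.9 against 89.4 CPM (-0.76). Both were lower in all 8 clusters. The tubulin gene Tuba1b, outside the list, had 111.7 against 229.2 CPM (-1.01) and was lower in all 8, with -0.77 when clusters 0, 8, 10 and 11 were left out.

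Of the 36 nuclear genes of oxidative phosphorylation 1 was higher and 35 were lower, 0 passed the fold, and the median was -0.23 over all cells and between -0.29 and -0.11 in the clusters. Ndufa4 had 525.3 CPM in fasted and 665.7 CPM in ad libitum cells (-0.34) and Cox5b, a subunit of cytochrome c oxidase, 390.4 against 492.4 CPM (-0.33). The share of mitochondrial UMIs moved the other way, as given above. Glycolysis had 4 genes higher and 9 lower with a median of -0.10, and Ldha, lactate dehydrogenase A, stood at 206.8 against 272.8 CPM (-0.39) and Gapdh at 349.0 against 447.8 CPM (-0.35), both lower in all 8 clusters. MYC and nucleolar genes had 3 higher and 14 lower with a median of -0.18, which was 0.02 in thinned cells. Myc itself had 23.8 CPM in fasted and 20.4 CPM in ad libitum cells with overlapping intervals.

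Most of the remaining lists had medians close to that of all genes. The 21 measured NK transcription factors had a median of -0.01, with Eomes at 224.5 CPM in fasted and 229.5 CPM in ad libitum cells and Tbx21, T-bet, at 129.5 against 141.6 CPM. Their counting intervals overlapped. Autophagy and lysosome genes had 13 higher and 7 lower (median 0.05), with Acp5 past the fold. The autophagy receptors Sqstm1, with 103.0 against 78.7 CPM (0.37), and Bnip3l, with 152.6 against 123.8 CPM (0.29), stayed under it. Trafficking genes had a median of -0.04, genes of the amino acid response -0.03, which was 0.04 in thinned cells, and immediate early genes 0.05, which was -0.01 with the ad libitum cluster shares. Sterol and fatty acid synthesis had 5 measured genes with a median of -0.22, and Scd2, a fatty acid desaturase, was past the fold with 35.4 against 56.0 CPM (-0.60). Clock genes had 2 measured members, Bhlhe40 with 203.9 against 211.8 CPM and Clock with 20.9 against 16.5 CPM. Dbp, an output gene of the clock, was under the minimum with 7.30 against 6.94 CPM.

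**Figure D4:**
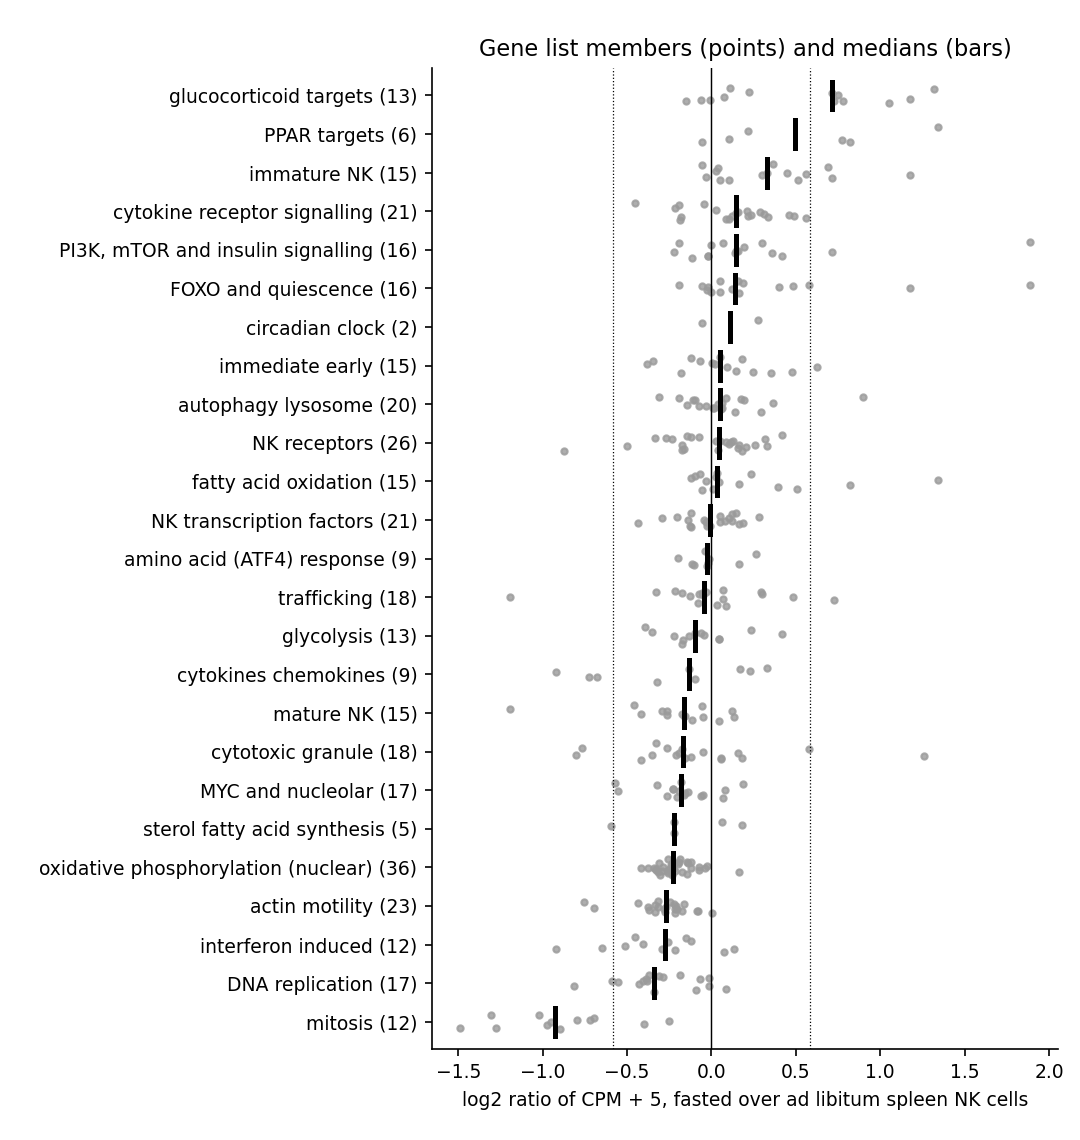
Log2 ratio of CPM + 5, fasted over ad libitum, of the members at 20 CPM or more (points) and their median (bars) for 25 gene lists, with the number of such members in brackets. Dotted lines mark 1.5-fold. At this minimum, glucocorticoid targets have the highest median (0.71) and mitosis genes the lowest (-0.92), and the 36 oxidative phosphorylation genes form a narrow band around -0.23.

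A few genes recurred among the 3 highest or 3 lowest ratios of clusters 1 to 5, and other genes led in clusters 6, 7 and 9. Among genes at 100 CPM or more in a cluster, Tsc22d3 and Txnip were among the 3 highest ratios in each of clusters 1 to 5, and Klhl6 in clusters 1, 2 and 4. Xcl1 was among the 3 lowest in clusters 1 to 4, Cx3cr1 in clusters 3 and 4, and Ccl4 in clusters 1 and 3. In cluster 2, Tnfrsf9, the costimulatory receptor 4-1BB, had 30.3 CPM in fasted and 106.9 CPM in ad libitum cells (-1.66). In cluster 1, Plac8 had 32.3 against 128.8 CPM (-1.84), while over all cells it had 43.6 against 64.1 CPM. Cluster 5 had Zbp1, a nucleic acid sensor that interferon induces, with 39.7 against 101.1 CPM (-1.25), and the phosphatase gene Ptpn6, with 45.0 against 104.5 CPM (-1.13). In cluster 7, Klrb1b, an inhibitory receptor, had 123.6 against 33.7 CPM (1.73), from 39 and 8 UMIs. Over all cells the log2 ratio of Klrb1b was 0.26. Clusters 6 and 9 had 52 and 69 fasted cells of low depth, and their extreme ratios rest on few UMIs.

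**Figure D5:**
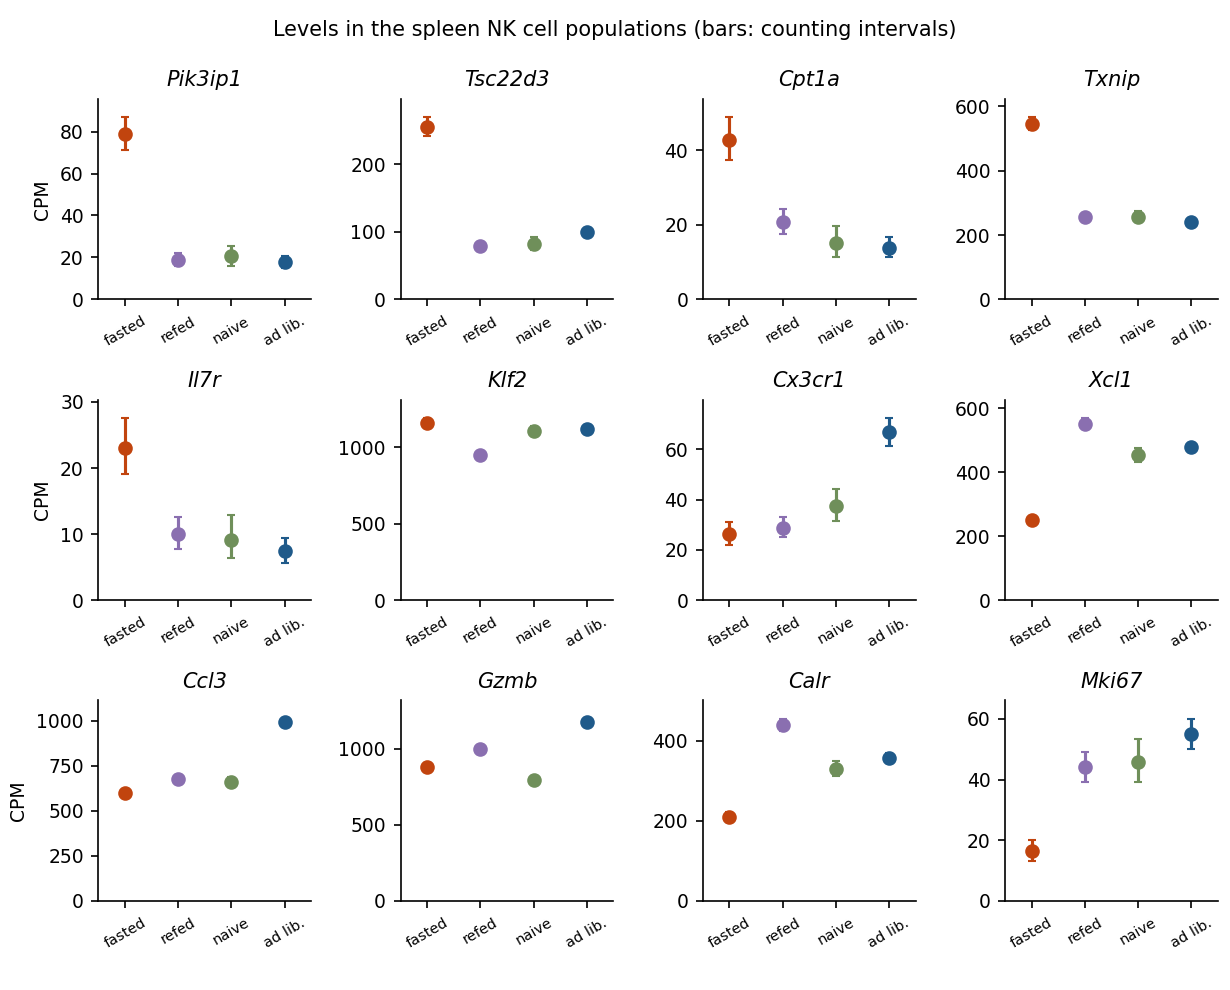
Level in CPM (vertical axis, from 0) of 12 genes in fasted, refed, naive and ad libitum spleen NK cells. Points are summed counts of 1 sample each and bars are 95% counting intervals. Pik3ip1, Tsc22d3 and Txnip are high in the fasted population, Xcl1 and Calr are low in it, and Cx3cr1 and Ccl3 are high in the ad libitum population.

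Several of these genes fell into 3 patterns across the 4 spleen populations. For Pik3ip1, Tsc22d3, Txnip, Il7r and Rab27a the fasted level was high and the others were close together. For Xcl1, Calr, Pdia6 and Mki67 the fasted level was low and the others higher. For Cx3cr1, Klrg1, Ccl3 and Ifng the fasted, refed and naive levels were closer to each other than to the ad libitum level. Other genes followed none of these patterns: Gzmb was lowest in naive cells, Klf2 was lowest in refed cells at 947.1 CPM, and Isg15 and Ifi27l2a were low in both fasted and naive cells. These are levels of 1 sample each, and the refed and naive comparisons share the ad libitum sample.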

How the data were processed

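Per the labels, the authors built the count matrix of UMIs per cell and gene with seqc, on mm10 per the submitters' processing notes. They deposited it with a cluster number per cell (12 clusters), a hashtag classification and a tag list. The methods of classification and clustering are not stated in the labels used here. The deposited counts have 16800 gene columns with 16789 symbols, of which 16278 matched GENCODE M21, the source of the loci. The lowest total per cell was 683 UMIs, and 42.8% of classified cells were doublets by the authors' classification and were left out, as were 33 cells without a class. No barcode occurred more than once. No other doublet caller was run.

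Cells with at least 4 UMIs over at least 3 markers of T, B, macrophage or monocyte, neutrophil, dendritic or basophil cells were left out. UMIs were summed over the cells of a population, scaled to CPM, and compared as the log2 ratio of CPM + 5, which understates differences of low genes. A gene counted as past the fold at 1.5 times, or 0.585 on the log2 scale. Intervals are exact Poisson intervals for CPM and exact binomial intervals for shares of cells, both at 95% and for counting error only. Clusters are parts of 1 sample and no replicates, and they were built from the same genes. TMM factors came from edgeR 4.0.16, and other steps were run with scipy 1.17.1, numpy 2.4.6, matplotlib 3.10.9 and pandas 2.3.3 under Python 3.11.15. Of these steps, only the log2 ratio and the thinning were tested on simulated counts. The labels used here do not state whether the counting used strand, so reads of overlapping antisense genes cannot be told apart.

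The genes named were the 15 highest and 15 lowest ratios at 50 CPM or more. Their direction had to hold without the cell with most UMIs of the gene. Up to 4 members of each of 25 lists and their defining members were also named. So were the 3 highest and 3 lowest at 100 CPM or more in each cluster, and 24 genes written into the rule. Unnamed gene models, mitochondrial, ribosomal protein, haemoglobin, immunoglobulin and receptor rearrangement genes and markers of other cell types were left out. The members, the lists and the rule with its 24 genes were chosen with earlier results of these data known. The motifs, and the promoters shown, were chosen after the values were seen, and genes named only for a motif or an ER chaperone role lie outside the rule, as do further members of the lists. Not every gene that the rule names is reported here.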

Additional observations from a re-analysis of the deposited data

Results flagged for a closer look

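Gzmc was the only gene among the 51 named genes past the fold whose ratio had the opposite sign in bone marrow. Its log2 ratio, fasted over ad libitum, was -0.80 in spleen and 0.53 in bone marrow, and the difference between the tissues was not tested. The bone marrow values rest on 119 fasted and 478 ad libitum cells. As given above, 42.05% of the ad libitum spleen UMIs of Gzmc lay in 2 cells.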

How the results depend on the processing

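Against 50 higher and 61 lower genes, the counts were 14 and 26 with a pseudocount of 20 CPM, 23 and 34 with a minimum of 50 CPM, 78 and 122 with no minimum, 121 and 116 with equal cluster weights, 86 higher in thinned cells, and 32 and 39 lower with the same weight per cell and with the ad libitum cluster shares. The 41 lower genes without clusters 0, 8, 10 and 11 and the 48 and 57 genes without clusters 6, 7 and 9 come from steps chosen after seeing the data. Equal cluster weights and the ad libitum cluster shares use only the 8 compared clusters, so they also leave out clusters 0, 8, 10 and 11. For Gzmc, leaving out those clusters alone gave -0.06. Signs changed for Gzmc (0.10 with cells of equal weight, 0.24 with clusters of equal weight, 0.074 with the ad libitum cluster shares), Mcm5 (0.052 thinned, against -0.59), and the medians of MYC genes (0.015 thinned), PI3K genes (-0.052 with equal cluster weights) and clock genes (-0.054 with a minimum of 50 CPM, -0.076 in cells of 2000 UMIs or more, -0.056 without clusters 6, 7 and 9, against 0.11). The causes were not tested. No other named gene past the fold and no other list median of at least 0.1 changed sign in these alternatives, including a pseudocount of 1 CPM, TMM factors, and totals that leave out mitochondrial and ribosomal protein genes. Depth limits genes near 20 CPM, and 1 sample a group leaves differences between mice unmeasured. No paired analysis was possible because each population is 1 sample.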
